A study of Homo sapiens with 12 samples.

Results

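The genes described here encode 10 integrin subunits, the 6 alpha chains ITGA2, ITGA3, ITGA4, ITGA5, ITGA6 and ITGAV and the 4 beta chains ITGB1, ITGB3, ITGB5 and ITGB8. They were taken by symbol from the 55243 gene symbols that stood on a single row of the deposited table, and all 10 were found. RNA had been sequenced from 12 libraries of HT1080, an established human fibrosarcoma line that carries an NRAS mutation, in 4 groups of 3: a control siRNA (siNC) with DMSO, siNC with poly(dA:dT), an siRNA named for the Q61K form of NRAS (siQ61K) with DMSO, and siQ61K with poly(dA:dT). Poly(dA:dT) is a synthetic double-stranded DNA that sets off cytosolic DNA sensing, and the series asked how loss of mutant NRAS alters the interferon response to it. Every group carried an siRNA, siQ61K was the only one against NRAS, and the labels name no delivery control for poly(dA:dT). Whether replicates were grown as separate cultures is not labelled, and the p-values cover only how these libraries spread, which may be technical.

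Integrins are cell-surface receptors made of 1 alpha and 1 beta chain, and an unpaired chain is largely kept inside the cell. They bind the extracellular matrix outside the cell and, through talin, kindlin and other adaptors, the actin cytoskeleton inside it. The ITGB1 chain pairs with many alpha chains: with that of ITGA2 it binds collagen, with those of ITGA3 or ITGA6 laminin, with that of ITGA4 fibronectin and VCAM1, and with that of ITGA5 fibronectin. The ITGAV chain pairs with the products of ITGB1, ITGB3, ITGB5 and ITGB8, and these receptors bind vitronectin, fibronectin or the latent form of TGF-beta.

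The promoters of ITGB1, ITGA2 and ITGAV are shown as examples from the called members. ITGB1 was called lower after siQ61K with and without poly(dA:dT), ITGA2 was called lower without it, and ITGAV was called higher with it. Each is the stretch of 250 bases before a transcript start in RefSeq (GRCh38.p14), 5′ to 3′ on the strand of the gene. ITGB1 lies at chr10:32958231-32958480 on the minus strand, ITGA2 at chr5:52989102-52989351 on the plus strand and ITGAV at chr2:186589806-186590055 on the plus strand. RefSeq lists 2 starts for ITGB1 and ITGAV, of which the first is shown. Capitals mark matches on either strand to an AP-1 motif (TGANTCA), an ETS motif (CCGGAA), a CRE (TGACGTCA) or a GC box (GGGCGG).
ITGB1: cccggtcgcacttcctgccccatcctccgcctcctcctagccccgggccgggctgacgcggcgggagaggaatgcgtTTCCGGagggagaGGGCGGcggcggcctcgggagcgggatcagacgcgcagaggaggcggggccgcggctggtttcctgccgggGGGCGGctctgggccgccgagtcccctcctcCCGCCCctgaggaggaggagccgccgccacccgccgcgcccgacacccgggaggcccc
ITGA2: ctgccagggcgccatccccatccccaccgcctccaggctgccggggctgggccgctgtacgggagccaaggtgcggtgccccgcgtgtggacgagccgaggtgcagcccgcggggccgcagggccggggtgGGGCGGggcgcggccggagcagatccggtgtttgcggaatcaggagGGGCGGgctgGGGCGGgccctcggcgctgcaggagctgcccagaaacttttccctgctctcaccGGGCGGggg
ITGAV: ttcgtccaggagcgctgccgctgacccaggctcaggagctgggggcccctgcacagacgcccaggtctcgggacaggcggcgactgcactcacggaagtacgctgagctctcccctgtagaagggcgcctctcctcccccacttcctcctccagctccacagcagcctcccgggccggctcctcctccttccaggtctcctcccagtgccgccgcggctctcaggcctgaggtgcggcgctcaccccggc
The capitals in ITGB1 are 1 ETS and 3 GC box matches, those in ITGA2 are 4 GC box matches, and ITGAV has no match to the 4 motifs. The promoter of ITGA6, a gene also called lower with and without poly(dA:dT), is not shown. At its first listed start it has no match to the 4 motifs either. Of 27305 promoters of this length, 42.3% held a GC box, 14.8% the ETS motif, 6.6% the AP-1 motif and 1.77% the CRE. None of the 8 members with a listed promoter held the AP-1 motif or the CRE in this window. A match is a description of the letters and not a site of binding.

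Levels are given in TPM, a share of all transcripts that is scaled for the length of each gene, so that genes can be compared within a library. The libraries of a group correlated with each other at 0.966 to 0.984 across genes on the log2(TPM + 1) scale. NRAS ranged from 41.4 to 60.6 TPM in the 6 siNC libraries and from 15.2 to 23.5 TPM in the 6 siQ61K libraries. All 6 mesenchymal markers, VIM and FN1 among them, reached 1 TPM. Of the markers of other cell types only CLDN4, 1 of 6 epithelial markers, reached 1 TPM in any library, and the epithelial markers summed to 0.797 to 3.76 TPM. Leukocyte markers summed to at most 0.831 TPM and endothelial and platelet markers to at most 0.838 TPM, with PF4 and the epithelial marker OVOL1 listed at 0 throughout. The libraries also differed in how levels followed the GC content of genes. As a measure of this tilt, the median deviation of the 3668 genes lowest in GC content was subtracted from that of the 3668 highest, on the log2 scale. It was -0.52, -0.35 and -0.03 in the siNC DMSO libraries and 0.25, 0.08 and -0.11 with poly(dA:dT). With siQ61K it was 0.54, 0.50 and 0.32 in DMSO and 0.08, -0.31 and -0.47 with poly(dA:dT). The tilt moved with the groups, and the members span it: the longest transcript of ITGA3 has a GC content of 61.3%, while those of ITGAV and ITGB1 have 38.3% and 40.0%. Fold changes are therefore also given below after each library was corrected for GC content and transcript length. Because the tilt moved with the groups, the correction also takes out any effect of the groups that follows GC content or length. The design cannot tell such an effect from a technical one, which also limits calls made only after the correction.

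ITGB1 was the most abundant member in both siNC groups. In siNC DMSO it averaged 879 TPM, followed by ITGA3 (346 TPM), ITGA5 (305 TPM), ITGA6 (221 TPM), ITGB5 (207 TPM), ITGA2 (140 TPM) and ITGAV (54.9 TPM). ITGA4 (14.7 TPM) and ITGB3 (13.2 TPM) were far lower, and ITGB8 was at 0.650 TPM. In this order the libraries of ITGA3 and ITGA5, of ITGA6 and ITGB5, and of ITGA4 and ITGB3 overlapped, and all other neighbours were apart. In siQ61K DMSO the order was different: ITGA3 (719 TPM) was first, ITGB1 (295 TPM) overlapped with ITGA5 (280 TPM), and ITGA6 (99.7 TPM) overlapped with ITGA2 (76.8 TPM) and ITGA2 with ITGAV (70.8 TPM). ITGB8, a beta chain that pairs with the ITGAV chain alone, reached 1 TPM in only 1 of 12 libraries, between 0.312 and 1.01 TPM, and was not tested. The other 9 members exceeded 1 TPM in all 12 libraries.

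**Figure D1:**
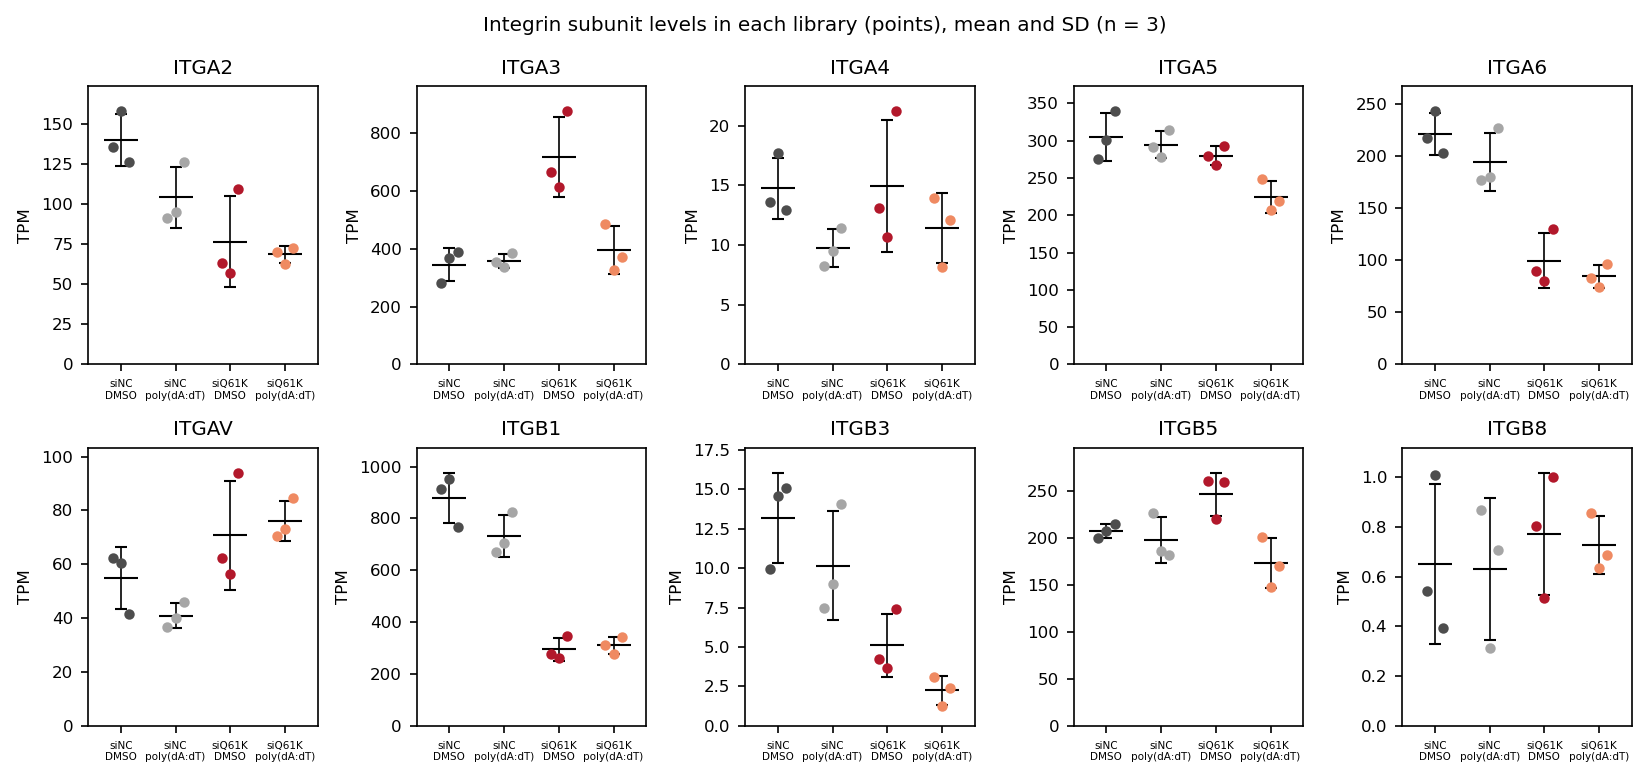
TPM of each integrin member (vertical axes, each from 0) in the 4 groups (horizontal axes); points are the 3 libraries of a group and the bar with whiskers is the mean and SD. For ITGB1 and ITGA6 all 6 siQ61K libraries lie under all 6 siNC libraries, whereas ITGB8 stays near or below 1 TPM in all 4 groups.

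Knockdown without poly(dA:dT) asked what siQ61K did to these genes in unstimulated cells. ITGB1, ITGA6, ITGA2 and ITGB3 fell, and ITGA3 rose. The other 4 tested members, ITGA4, ITGA5, ITGAV and ITGB5, did not pass the test. Calls were made with limma at an adjusted p under 0.05 over all 14722 genes tested, of which 31.5% passed in this comparison. Beside that share, 5 of 9 members passed, 4 lower (14.8% of all genes) and 1 higher (16.6% of all genes). The members, and the gene lists used further below, were chosen with earlier results of these data known. Here and below, their counts therefore cannot be weighed against all genes as those of an independent set. The count over all genes was 4632, and 3040 with replicate 1 of siNC DMSO left out, while 5 members passed whichever library was left out. In bulk RNA, fewer cells that express a gene and less RNA per cell cannot be told apart.

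Among the beta chains, ITGB1 stood at 915, 953 and 769 TPM in siNC DMSO and at 277, 262 and 347 TPM in siQ61K DMSO. The groups were far apart, with the highest siQ61K library below the lowest siNC library. The log2 fold change of (TPM + 1) was -1.57 (SE 0.13, limma adjusted p = 7.18e-06), and -1.30 after the GC and length correction. ITGB3, the vitronectin receptor chain best known from platelets and osteoclasts, went from 9.92, 14.6 and 15.1 TPM to 4.25, 3.68 and 7.40 TPM. Its groups did not overlap, though siQ61K replicate 3 came near the lowest siNC library. ITGB3 fell by 1.24 on the log2 scale (SE 0.29, limma adjusted p = 0.00647), and by 1.41 after the correction. ITGB5, another vitronectin-binding beta chain, stood at 199, 207 and 214 TPM and then at 260, 220 and 259 TPM. These groups also did not overlap, but the log2 fold change of 0.25 (SE 0.125, limma adjusted p = 0.155) did not pass, and it was 0.0046 after the correction.

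Among the alpha chains that pair with ITGB1, the laminin-binding chains went opposite ways. ITGA6 was at 217, 243 and 203 TPM in siNC DMSO and at 89.3, 80.2 and 130 TPM in siQ61K DMSO. All siQ61K libraries were lower, and replicate 3 was the highest of them. The fall was 1.17 on the log2 scale (a log2 fold change of -1.17, SE 0.17, limma adjusted p = 3.19e-04), and 1.02 after the correction. ITGA3 was at 283, 367 and 388 TPM and then at 667, 615 and 877 TPM. Every siQ61K library was above every siNC library, with a log2 fold change of 1.05 (SE 0.17, limma adjusted p = 5.98e-04). After the correction this rise was 0.58 (limma adjusted p = 0.00124). The ratio of ITGA3 to ITGA6 within a library ran from 1.30 to 1.91 in siNC DMSO and from 6.77 to 7.66 in siQ61K DMSO.

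The collagen receptor chain ITGA2 fell from 136, 158 and 127 TPM to 63.7, 57.4 and 109 TPM. The groups did not overlap, but siQ61K replicate 3 lay much closer to siNC than the other two. Its log2 fold change was -0.91 (SE 0.20, limma adjusted p = 0.00488), and -0.68 after the correction. The fibronectin receptor chain ITGA5 was at 275, 301 and 339 TPM and then at 279, 267 and 293 TPM, with overlap between the groups. Its log2 fold change of -0.12 (SE 0.10, limma adjusted p = 0.403) did not pass, and after the correction it was -0.38 (limma adjusted p = 0.00131), a call. ITGAV, also in overlapping groups, was at 62.4, 60.7 and 41.7 TPM and then at 62.3, 56.2 and 94.0 TPM. Its log2 fold change was 0.35 (SE 0.19, limma adjusted p = 0.191), and 0.64 after the correction (limma adjusted p = 6.03e-04). ITGA4, a chain best known from leukocytes, was at 13.6, 17.7 and 12.9 TPM and then at 13.1, 10.7 and 21.2 TPM, a log2 fold change of -0.02 (SE 0.24). In siQ61K DMSO, replicate 3 was the highest library for 9 of the 10 members and replicate 2 the lowest for all 10. The part of that shared difference between libraries in the results was not tested. With that replicate 3 and replicate 2 of siQ61K poly(dA:dT) both left out, the 5 members that passed still did, with ITGA2 at -1.19 and ITGA3 at 0.90.

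**Figure D2:**
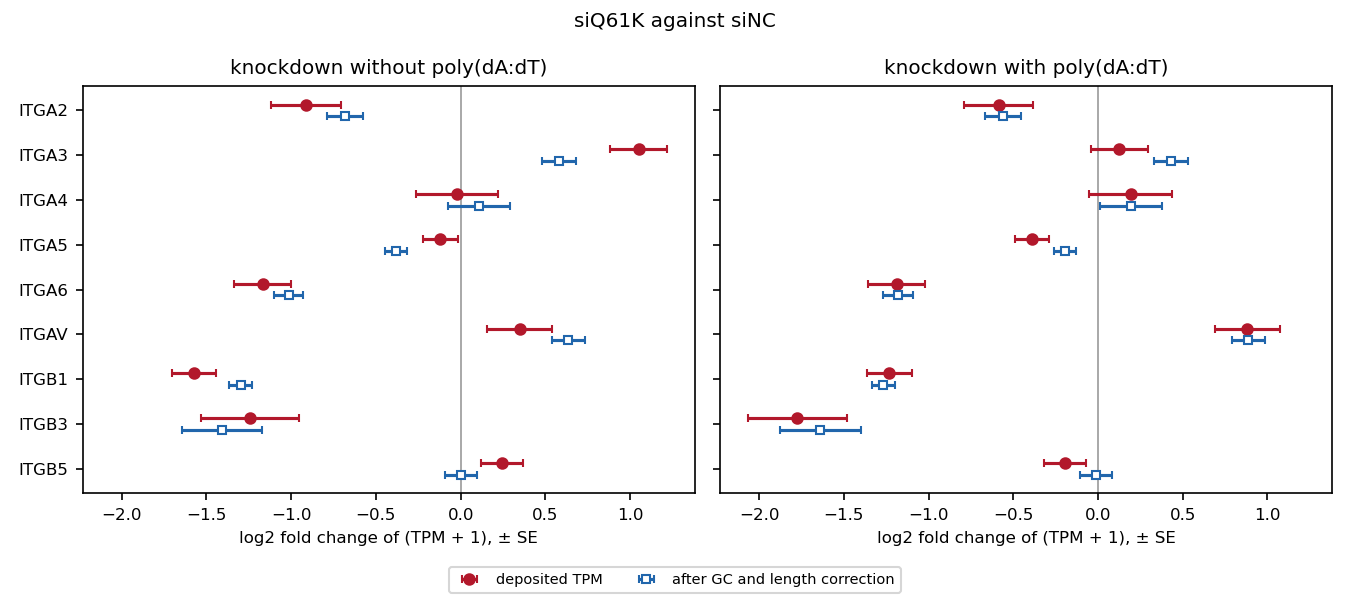
Log2 fold change of (TPM + 1), siQ61K against siNC, for the 9 tested members without (left) and with (right) poly(dA:dT); filled circles are from deposited TPM, open squares after the GC and length correction, and whiskers are SE. ITGB1, ITGA6, ITGA2, ITGB3 and ITGA5 lie left of 0 in both panels on both scales. ITGA3 is at 1.05 in the left panel and at 0.13 in the right one before the correction.

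Knockdown with poly(dA:dT) asked the same in stimulated cells, with 2 other sets of 3 libraries. ITGB1, ITGA6 and ITGB3 fell again, ITGA5 fell and ITGAV rose. Here 5 of 9 members passed, against 21.4% of all genes, with 4 lower (12.6% of all genes) and 1 higher (8.71% of all genes). Of all genes called, 40.8% were higher, and 51.3% with median-of-ratios scaling. ITGB1, ITGA6 and ITGB3, 3 members in all, passed in both knockdown comparisons, and 7 did after the GC and length correction, which left 26.9% of all genes called here and 27.5% without poly(dA:dT). Those 7 were ITGA2, ITGA5, ITGA6, ITGB1 and ITGB3, lower in both, and ITGA3 and ITGAV, higher in both.

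ITGB1 stood at 670, 704 and 823 TPM in siNC poly(dA:dT) and at 312, 278 and 344 TPM in siQ61K poly(dA:dT). The groups were again far apart, with a log2 fold change of -1.23 (SE 0.13, limma adjusted p = 3.37e-05), and -1.27 after the correction. ITGB3 was at 7.46, 8.998 and 14.0 TPM and then at 3.10, 1.29 and 2.38 TPM. It was the member with the largest change here, a log2 fold change of -1.77 (SE 0.29, limma adjusted p = 0.00102), although adding 1 to levels this low understates the change. ITGB5 was at 226, 186 and 181 TPM and then at 201, 148 and 170 TPM, in overlapping groups (log2 fold change -0.20, SE 0.125, limma adjusted p = 0.29).

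ITGA6 was at 177, 180 and 227 TPM with siNC and at 83.2, 74.6 and 96.4 TPM with siQ61K. All siQ61K libraries were lower by a wide margin (log2 fold change -1.19, SE 0.17, limma adjusted p = 3.37e-04), and the correction left this at -1.18. ITGAV was at 36.6, 40.2 and 46.0 TPM and then at 70.6, 73.1 and 84.6 TPM. No siNC library reached the siQ61K range, and the log2 fold change was 0.88 (SE 0.19, limma adjusted p = 0.00613), and 0.89 after the correction. ITGA5, with 291, 279 and 314 TPM against 249, 207 and 220 TPM, had a smaller change that rested on single libraries. Its log2 fold change was -0.39 (SE 0.10, limma adjusted p = 0.0169), with a limma adjusted p of 0.067 once replicate 3 of siNC poly(dA:dT) was left out. Leaving out replicate 2 or 3 of siQ61K poly(dA:dT) gave ITGA5 a limma adjusted p of 0.0704 or 0.0532.

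ITGA2 was at 91.7, 95.6 and 126 TPM with siNC and at 70.5, 62.8 and 72.9 TPM with siQ61K. The groups did not overlap, but the log2 fold change of -0.59 (SE 0.20, limma adjusted p = 0.0567) missed the threshold. It passed after the correction (-0.56, limma adjusted p = 0.0023), and on leaving out replicate 2 (limma adjusted p = 0.0437) or 3 (limma adjusted p = 0.00943) of siQ61K DMSO, which share only the spread estimate with this comparison. ITGA3 was at 354, 336 and 386 TPM and then at 488, 328 and 374 TPM, so that only siQ61K replicate 1 stood above the siNC range. Its log2 fold change was 0.13 (SE 0.17, limma adjusted p = 0.628), -0.03 with that replicate 1 left out, and 0.43 after the correction (limma adjusted p = 0.00723). ITGA4 ranged from 8.21 to 14.0 TPM over these 6 libraries (log2 fold change 0.19, SE 0.24).

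Summed over the members, alpha and beta chains were at similar levels in the siNC groups and apart in the siQ61K groups. The alpha sum divided by the beta sum was 0.989 ± 0.119 in siNC DMSO, 1.06 ± 0.0222 in siNC poly(dA:dT), 2.29 ± 0.166 in siQ61K DMSO and 1.77 ± 0.111 in siQ61K poly(dA:dT) (SD, n = 3). The beta sum went from 1100 ± 91.3 TPM in siNC DMSO to 547 ± 64.0 TPM in siQ61K DMSO (SD, n = 3), and from 941 ± 67.9 to 487 ± 51.5 TPM with poly(dA:dT) (SD, n = 3). ITGB1 made up 77.0% to 81.3% of the beta sum in siNC DMSO and 51.2% to 56.5% in siQ61K DMSO, where ITGB5 made up 42.2% to 47.9%. ITGA3 made up 28.7% to 34.9% of the alpha sum in siNC DMSO and 56.6% to 57.5% in siQ61K DMSO. With poly(dA:dT) its share was 34.8% to 36.9% under siNC and 43.5% to 50.04% under siQ61K. The level of ITGAV relative to ITGB3, a pair that forms a vitronectin receptor, ran from 2.77 to 6.29 with siNC and from 12.7 to 15.3 with siQ61K in DMSO. With poly(dA:dT) it ran from 3.28 to 4.91 with siNC and from 22.8 to 56.7 with siQ61K. The last range divides by ITGB3 at 3.10, 1.29 and 2.38 TPM, levels so low that small differences move the ratio. Its upper end, 56.7, is from the library at 1.29 TPM. These sums and ratios are of RNA, and are given as a description with no test. They use deposited TPM, without the GC and length correction. Without poly(dA:dT) that correction took the log2 fold change of ITGA3 from 1.05 to 0.58 and that of ITGB1 from -1.57 to -1.30. With poly(dA:dT) it took them from 0.13 to 0.43 and from -1.23 to -1.27. The part of the GC tilt in the sums and ratios was not tested.

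**Figure D3:**
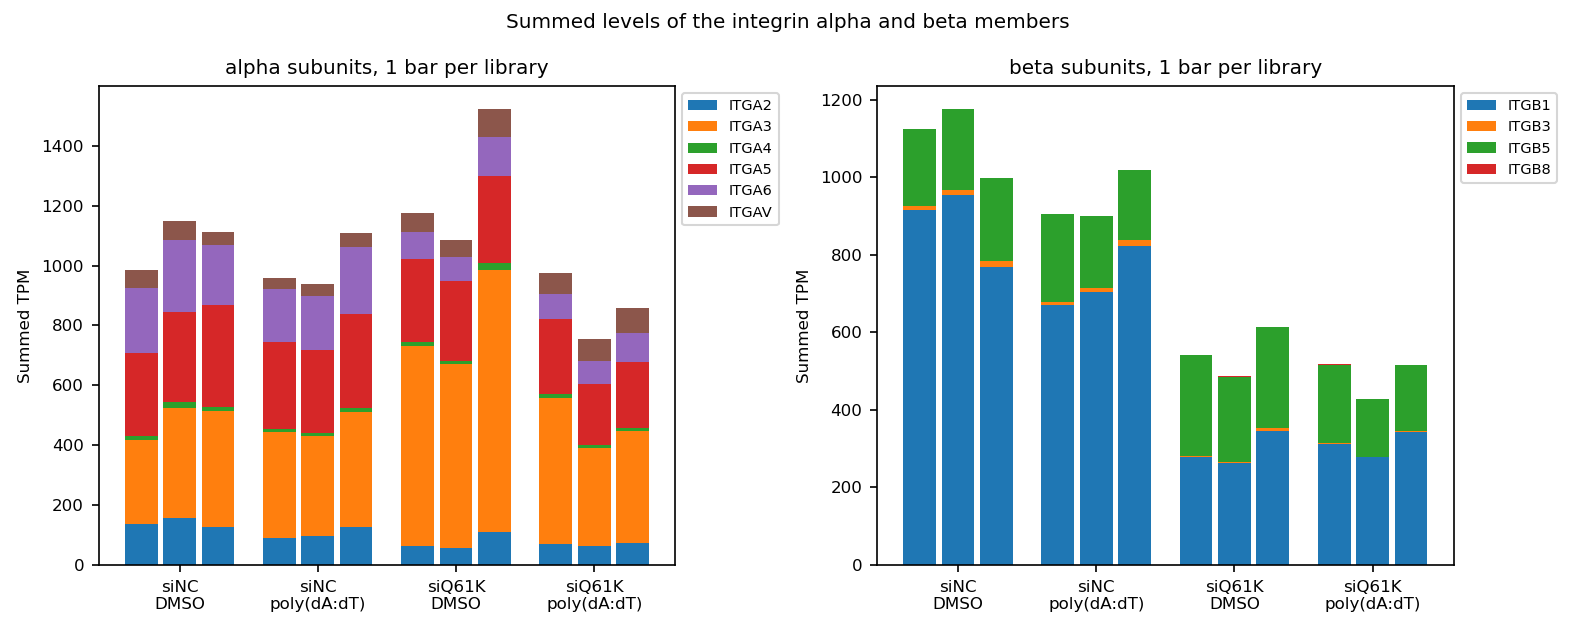
Summed TPM of the alpha members (left) and the beta members (right), 1 stacked bar per library in the 4 groups, both axes from 0. The ITGB1 segment shrinks from 769 to 953 TPM in siNC DMSO to 262 to 347 TPM in siQ61K DMSO. The ITGA3 segment is the tallest alpha segment in every library of all 4 groups.

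Poly(dA:dT) under siNC tested whether the DNA stimulus itself moved integrin RNA. No member passed in limma, against 0.122% of all genes, and none did after the GC and length correction, against 0.204%. At an unadjusted p under 0.05 there was 1 of 9 members, against 11.1% of all genes. The 9 log2 fold changes lay between -0.55 (ITGA4, SE 0.24, limma adjusted p = 0.437) and 0.06 (ITGA3, SE 0.17). ITGA2, from 136, 158 and 127 TPM to 91.7, 95.6 and 126 TPM, and ITGA4, from 13.6, 17.7 and 12.9 TPM to 8.24, 9.53 and 11.4 TPM, were the 2 members whose groups did not overlap, both lower, which held for 10% of all genes. For ITGA2 this separation was narrow, at 127 against 126 TPM, and its log2 fold change was -0.43 (SE 0.20, limma adjusted p = 0.452). Exact two-sided permutation tests of 3 libraries against 3 cannot go below p = 0.1, in this and the other comparisons.

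Poly(dA:dT) under siQ61K gave 4 members that fell, ITGA3, ITGB5, ITGB3 and ITGA5, and none that rose. Of all genes, 25.2% passed, 18.3% lower and 6.92% higher, and the median over all genes was -0.15. With median-of-ratios scaling that median was -0.01, a shift of over 0.1, 52.6% of the calls were higher in place of 27.5%, and 2 members passed. ITGA3 went from 667, 615 and 877 TPM to 488, 328 and 374 TPM (log2 fold change -0.86, SE 0.17, limma adjusted p = 0.00582). ITGB5 went from 260, 220 and 259 TPM to 201, 148 and 170 TPM (log2 fold change -0.51, SE 0.125, limma adjusted p = 0.0122). In both genes every poly(dA:dT) library lay below every DMSO library. ITGB3 (log2 fold change -0.90, SE 0.29, limma adjusted p = 0.0391) and ITGA5 (log2 fold change -0.32, SE 0.10, limma adjusted p = 0.0397) passed more narrowly. None of the 4 passed after the GC and length correction, which left ITGA3 at -0.22, ITGB5 at -0.10, ITGB3 at -0.58 and ITGA5 at 0.13, with 8.7% of all genes called. These 4 members have the highest GC contents of the 9 tested, from 52.3% to 61.3%. The count of 4 was 2 on leaving out replicate 2 of either siNC group, replicate 1 or 3 of siQ61K DMSO or replicate 3 of siQ61K poly(dA:dT), and 1 on leaving out replicate 2 of the latter. ITGA3 passed whichever single library was left out, and ITGB5 had a limma adjusted p of 0.0576 with replicate 2 of siQ61K poly(dA:dT) left out. ITGB1 (log2 fold change 0.08, SE 0.13), ITGAV (0.13, SE 0.19), ITGA2 (-0.10, SE 0.20), ITGA6 (-0.21, SE 0.17) and ITGA4 (-0.34, SE 0.24) did not pass.

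**Figure D4:**
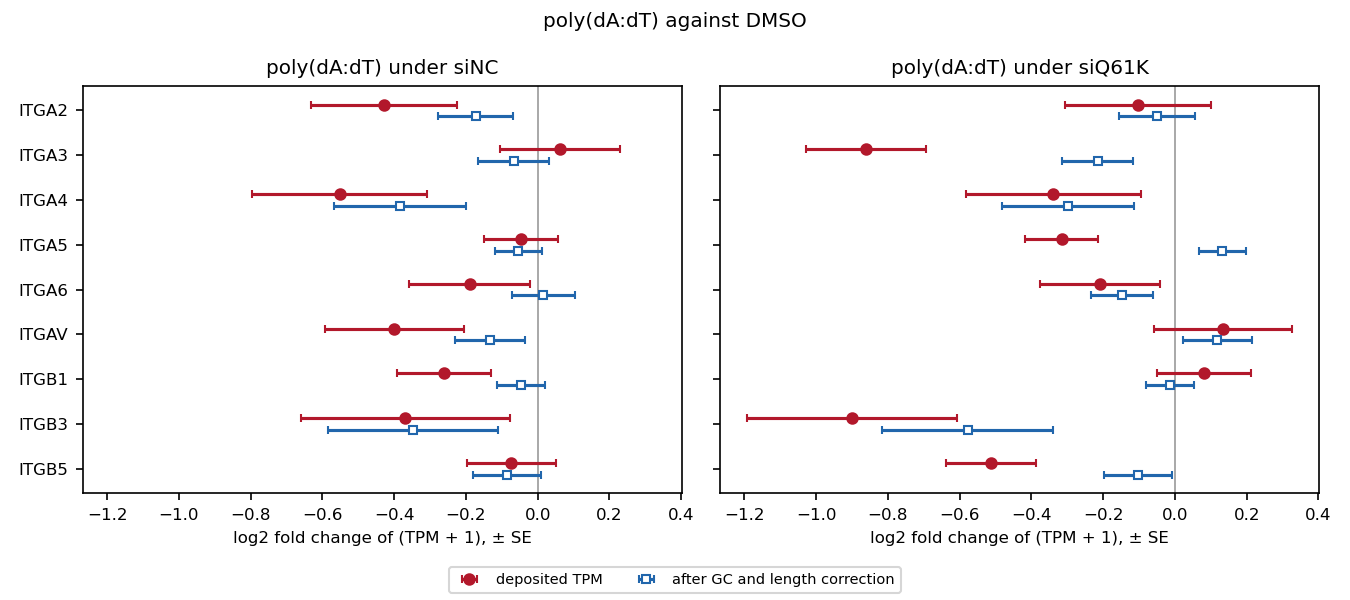
Log2 fold change of (TPM + 1), poly(dA:dT) against DMSO, for the 9 tested members under siNC (left) and siQ61K (right); filled circles are from deposited TPM, open squares after the GC and length correction, and whiskers are SE. Under siQ61K the circle of ITGA3 is at -0.86 and its square at -0.22.

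The interaction subtracts the poly(dA:dT) response seen with siNC from the one seen with siQ61K. It was called for ITGA3 alone among the 9 tested members, against 18.1% of all genes and 12.1% lower. ITGA3 differed by -0.92 (SE 0.24, limma adjusted p = 0.0215), and by -0.15 after the correction (limma adjusted p = 0.595), which left 2.06% of all genes called. The limma adjusted p for ITGA3 was 0.0591 with replicate 1 of siNC DMSO left out, and 0.0536 or 0.0561 with replicate 2 or 3 of siQ61K poly(dA:dT) left out. With replicate 1 of the latter group left out, ITGB5 passed as well, at -0.55 (limma adjusted p = 0.0246), where all libraries gave -0.44 (limma adjusted p = 0.0997). For ITGB1 the difference was 0.34 (SE 0.18, limma adjusted p = 0.212) and for ITGAV 0.53 (SE 0.27, limma adjusted p = 0.19). So the larger fall of ITGB1 without poly(dA:dT) and the larger rise of ITGAV with it were not separated from the spread between libraries.

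Of the 16 other integrin subunits, 7 reached 1 TPM in at least 3 libraries and were tested. Without poly(dA:dT) 2 fell and none rose, where 31.5% of all genes were called, and with it 3 fell and none rose, where 21.4% were. By direction, 16.6% of all genes rose and 14.8% fell without poly(dA:dT), and 8.71% rose and 12.6% fell with it. The medians of the 7 subunits were -0.13 and -0.18, against 0.01 and -0.07 over all genes. After the GC and length correction they were -0.26 and -0.03, against 0.0015 and 0.0057 over all genes. ITGA1, a second collagen receptor chain that pairs with ITGB1, went from 15.8, 23.6 and 14.5 TPM to 5.28, 4.85 and 8.79 TPM without poly(dA:dT) (log2 fold change -1.39, SE 0.22, limma adjusted p = 6.5e-04). It was lower with poly(dA:dT) as well, by -0.70 (limma adjusted p = 0.0398), a call that each of those 6 libraries was needed for (limma adjusted p from 0.0592 to 0.118 with 1 left out). ITGA10, a further collagen-binding partner of ITGB1, fell in both (-0.91 and -0.94), and the leukocyte chain ITGAX fell with poly(dA:dT), from 5.48 ± 0.780 to 2.88 ± 0.318 TPM (SD, n = 3). ITGA11, another collagen-binding partner of ITGB1 that was picked out after its values were seen, was at 1.47, 1.59 and 1.65 TPM in siNC DMSO and at 1.19, 1.04 and 1.91 TPM in siQ61K DMSO, in overlapping groups (log2 fold change -0.13, limma adjusted p = 0.725).

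Of 32 integrin adaptors and kinases, which link the cytoplasmic tails to actin and to signalling, 9 rose and 1 fell without poly(dA:dT), and 1 rose and 8 fell with it. Beside these 10 and 9 calls, 31.5% and 21.4% of all genes were called. The count without poly(dA:dT), in either direction, was thus at the background. By direction, 16.6% of all genes rose and 14.8% fell without poly(dA:dT), and 8.71% rose and 12.6% fell with it. After the GC and length correction the adaptor and kinase counts were 2 higher and 6 lower, and 7 and 9, beside 27.5% and 26.9% of all genes. With replicate 1 of siNC DMSO left out, the 10 calls without poly(dA:dT) were 5. The medians before the correction were 0.20 and -0.06, against 0.01 and -0.07 over all genes. After it they were -0.02 and 0.05, against 0.0015 and 0.0057 over all genes. NEDD9, a scaffold protein of focal adhesions, was the 1 that rose with poly(dA:dT), from 0.863, 0.618 and 0.511 TPM to 7.74, 6.46 and 6.76 TPM (log2 fold change 2.27, SE 0.18, limma adjusted p = 3.82e-06). It had risen without poly(dA:dT) as well, by 2.16. PXN, the focal adhesion adaptor paxillin, fell with poly(dA:dT) (-0.90, limma adjusted p = 0.00349), as did KANK2, a talin-binding protein (-0.90, limma adjusted p = 0.0051). The actin crosslinker ACTN4 was at -0.85 (limma adjusted p = 0.0403), a call lost on leaving out any of the 3 siNC poly(dA:dT) libraries (limma adjusted p from 0.0749 to 0.112). It was also lost for ACTN4 on leaving out replicate 1 of siQ61K DMSO (limma adjusted p = 0.0512) or replicate 2 or 3 of siQ61K poly(dA:dT) (limma adjusted p = 0.161 or 0.127).

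Among integrin ligands, 26 of 32 were tested, and 11 rose and 4 fell without poly(dA:dT), and 7 rose and 5 fell with it. Of all genes, 16.6% rose and 14.8% fell without poly(dA:dT), and 8.71% rose and 12.6% fell with it. After the correction the ligand counts were 9 and 6, and 8 and 5, beside 27.5% and 26.9% of all genes called. The medians before the correction were 0.32 and 0.09, against 0.01 and -0.07 over all genes. After it they were -0.05 and 0.15, against 0.0015 and 0.0057 over all genes. EDIL3, a secreted ligand of ITGAV receptors, was at 10.1, 9.43 and 6.72 TPM in siNC DMSO and at 21.3, 19.3 and 28.1 TPM in siQ61K DMSO, and it rose by 1.29 (SE 0.19, limma adjusted p = 3.13e-04). With poly(dA:dT) it rose by 2.03. THBS1, a matrix protein bound by several integrins, rose by 2.97 and 3.04. COL1A1, a chain of collagen I, rose without poly(dA:dT) from 2.68 ± 1.40 to 11.1 ± 0.599 TPM (SD, n = 3). With poly(dA:dT) COL1A1 was at 4.89 ± 3.06 TPM with siNC and 5.87 ± 1.79 TPM with siQ61K (SD, n = 3), in overlapping groups (log2 fold change 0.38, limma adjusted p = 0.545). LAMA4, a laminin alpha chain, fell with poly(dA:dT) from 42.7 ± 4.53 to 12.3 ± 1.88 TPM (SD, n = 3), and it fell without poly(dA:dT) as well (log2 fold change -0.84, limma adjusted p = 0.00143).

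Among surface partners and trafficking proteins of integrins, 20 of 22 were tested. Without poly(dA:dT) 5 rose and 4 fell, and with it 2 rose and 8 fell, beside 31.5% and 21.4% of all genes called. By direction, 16.6% of all genes rose and 14.8% fell without poly(dA:dT), and 8.71% rose and 12.6% fell with it. After the correction the partner and trafficking counts were 3 and 7, and 5 and 7, beside 27.5% and 26.9% of all genes. The count of 10 with poly(dA:dT) was 6 on leaving out replicate 1 of siNC poly(dA:dT) or replicate 2 of siQ61K poly(dA:dT). PLAUR, the urokinase receptor, which associates with integrins, fell from 275, 258 and 283 TPM to 136, 132 and 137 TPM without poly(dA:dT) (log2 fold change -1.002, SE 0.12, limma adjusted p = 7.71e-05), and by 1.51 with it. SDC4, a heparan sulfate co-receptor for fibronectin, rose in both (0.85 and 0.82). The tetraspanin CD9 fell without poly(dA:dT) (-0.76) and with it (-0.57, limma adjusted p = 0.0357), and the latter call was lost on leaving out any of the 3 siNC poly(dA:dT) libraries, replicate 1 of siQ61K DMSO or replicate 2 of siQ61K poly(dA:dT) (limma adjusted p from 0.0502 to 0.146). CD47, which binds integrins in the membrane, rose with poly(dA:dT) (0.92, limma adjusted p = 2.99e-04) and was at -0.09 without it (limma adjusted p = 0.644).

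The genes whose pattern over the 12 libraries was nearest to that of ITGB1 were DLGAP5, UHRF2 and PHLDA1. Likeness was the root mean square difference of centred log2(TPM + 1) values among 10094 genes with a mean of at least 5 TPM, and it was 0.0938, 0.102 and 0.105. These values were from deposited TPM, without the GC and length correction. The nearest member was ITGA6, at 0.171. DLGAP5, a mitotic spindle gene, averaged 61.8 TPM with siNC and 21.0 TPM with siQ61K in DMSO, and 48.1 and 19.9 TPM with poly(dA:dT).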

How the data were processed

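RNA-seq was measured in 12 HT1080 libraries, 3 in each of 4 groups taken from the sample titles, which do not themselves name DMSO. The authors deposited 1 table of TPM per gene symbol. The submitters' processing notes name Salmon 0.8.0 and hg19, and for the annotation and the step from transcripts to genes the sources used here give nothing. Short column names were matched to titles by reading SI as the only other siRNA and PD as the only added agent, an inference from names. TPM keeps no depth, which is therefore unknown, and no counting intervals were made.

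Of 56227 entries, 984 with repeated symbols were left out. Values were analysed as log2(TPM + 1), which understates changes of low genes, and the 14722 genes tested reached 1 TPM in 3 or more libraries. A linear model of the 4 groups was fitted in R 4.3.3 by limma 3.58.1, its prior variance following the mean level, and p-values were adjusted by the Benjamini-Hochberg method across the 14722 genes, with calls under 0.05. SE are those of the model. GC content and length came from the longest GENCODE release 29 transcript, known for 99.7% of genes, and each library was corrected by lowess (span 0.3).

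Named genes were NRAS, the members, up to 4 genes per list with the largest called knockdown change whose higher group averaged 5 TPM or more, and the 3 genes nearest to ITGB1. The members and lists were chosen with earlier results of these data known. Of 18 pairs of same-numbered libraries, 3 had residuals correlated above 0.1, and the numbers were not taken as pairs. With 3 libraries in each group, these correlations cannot show whether same-numbered libraries were prepared together. Alternatives were pseudocounts of 0.1 and 5, no filter, median-of-ratios scaling, quantile normalization, the GC and length correction, a fit to the compared groups alone, a replicate block, and libraries left out.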

Additional observations from a re-analysis of the deposited data

Results flagged for a closer look

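The response of ITGA3 to poly(dA:dT) differed between the siRNAs by a test of the difference itself. It was lower under siQ61K than under siNC by 0.92 on the log2 scale (a difference of -0.92, limma adjusted p = 0.0215), with poly(dA:dT) against DMSO at -0.86 under siQ61K and at 0.06 under siNC. After the GC and length correction the difference was -0.15 (limma adjusted p = 0.595), and ITGA3 has the highest GC content of the members, 61.3%. The call was also lost with no filter (limma adjusted p = 0.0741) and without replicate 1 of siNC DMSO (limma adjusted p = 0.0591). It was lost as well without replicate 2 or 3 of siQ61K poly(dA:dT) (limma adjusted p = 0.0536 or 0.0561).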

How the results depend on the processing

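Of 15 member fold changes that passed the test, 9 passed under every alternative run: ITGB1, ITGA6 and ITGB3 in both knockdown comparisons, ITGA2 and ITGA3 without poly(dA:dT), and ITGAV with it. For poly(dA:dT) under siQ61K, 3712 genes were called, and 2328 with no filter, 1276 after the GC and length correction, 2207 with only the groups compared, and 144 with replicate 3 of siQ61K DMSO and replicate 2 of siQ61K poly(dA:dT) both left out. The members among them went from 4 to 2, 0, 2 and 0, and to 2 with median-of-ratios scaling. The interaction count of 2662 was 1026 with no filter, 302 after the correction and 494 with both libraries left out, and the single member was 0 in each of these. The count of 18 under siNC was 30 after the correction. Leaving out each library gave 3040 to 4983 genes (5 to 5 members) for knockdown without poly(dA:dT), 2127 to 3770 (4 to 6) with it, 7 to 36 (0 to 0) for poly(dA:dT) under siNC, 1633 to 4622 (1 to 4) under siQ61K and 976 to 3877 (0 to 2) for the interaction. The lowest of these came without replicate 1 of siNC DMSO (knockdown without poly(dA:dT), interaction), replicate 1 of siNC poly(dA:dT) (under siNC) and replicate 3 of siQ61K poly(dA:dT) (under siQ61K). The share of calls that were higher was 27.5% under siQ61K and 33.2% for the interaction, and 62% and 67.5% after the correction and 47.7% and 46.5% after quantile normalization. Whether the replicate numbers pair the libraries is not labelled, and they were not taken as pairs. With a replicate block the counts over all genes were 4436 and 2957 for the knockdowns, 22 and 3433 for poly(dA:dT) under siNC and siQ61K and 2243 for the interaction, and ITGA2 in knockdown with poly(dA:dT) passed (limma adjusted p = 0.0464).

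Of the 27 values that changed sign, 1 had passed the test, ITGA5 under siQ61K, at 0.13 after the correction, where its interaction was 0.19. Others after the correction were ITGA3 (-0.066) and ITGA6 (0.016) under siNC, ITGA4 (0.11) in knockdown without poly(dA:dT) and ITGB1 (-0.015) under siQ61K. With median-of-ratios scaling and quantile normalization ITGA2 under siQ61K was 0.062 and 0.0052 and the ITGA6 interaction 0.077 and 0.10, and with the former ITGA5 under siNC was 0.021. With both libraries left out ITGA2, ITGA4 and ITGA6 under siQ61K were 0.24, 0.13 and 0.080 and the ITGA6 interaction 0.27. With single libraries left out, the ITGA6 interaction ran from -0.16 to 0.18, ITGA4 in knockdown without poly(dA:dT) from -0.29 to 0.18 and ITGA3 with it from -0.032 to 0.25. Under siQ61K ITGA2 ran from -0.28 to 0.18 and ITGAV from -0.012 to 0.35, and under siNC ITGA3 from -0.076 to 0.15 and ITGA5 from -0.12 to 0.032. The cause was not tested.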

Other observations

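ITGB1P1, a processed pseudogene of ITGB1, was listed at 5.42 TPM in siNC DMSO replicate 3 and at 0 in the other 11 libraries. ITGAE, the chain of a leukocyte receptor for E-cadherin, picked out after its values were seen, was at 19.1 to 46.6 TPM in these cells, above ITGA4 in all 12 libraries. It was the 1 other integrin subunit called higher in knockdown with poly(dA:dT) after the GC and length correction (0.75, limma adjusted p = 0.0311), and at 0.57 before it (limma adjusted p = 0.0543). TLN1, which encodes talin, the adaptor that binds integrin beta tails, had the second nearest pattern to ITGA5 over the 12 libraries, at a root mean square difference of 0.0668 on the log2 scale, and was likewise picked out after its values were seen. The nearest was APOBEC3C, at 0.0629. This likeness was taken on deposited TPM without the GC and length correction, and the part of the GC tilt in it was not tested.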
